A study of Mus musculus with 6 samples.

Results

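Keratin genes were followed across 6 RNA-seq libraries of mouse lung alveolar organoid cells. They were the rows of the deposited count table that carry the symbols Krt7, Krt8, Krt18, Krt19, Krt20 and Krt23 (6 simple-epithelial keratins) or Krt5, Krt14, Krt15 and Krt17 (4 basal keratins), 10 of 23224 genes in the table. All of the cells carried the Sftpc-eGFP genotype, which places a green fluorescent reporter under Sftpc, a surfactant gene of alveolar type 2 (AT2) cells, and all had spent 7 days in their culture condition. The control condition, 3D FNHCS, embedded the cells in 90% matrigel drops and fed them FNHCS medium. The 2D FNHCS condition kept this medium without the drops, as a flat culture. The 2D FBS condition was also flat, with 10% fetal bovine serum added to Ad-DMEM F/12. Every condition was sequenced once for each of 2 organoid lines, SN3593 and SN3595. In the titles 3D FNHCS is called type II, 2D FNHCS is called AT2 with AT1, and 2D FBS is called type I. AT1 denotes the flat alveolar type 1 cells of the gas exchange surface. Cells with and without eGFP are mentioned in the series design, but no source used here says whether the RNA came from a sort. Separate animals for the lines are not stated, so a p-value here measures how these lines and cultures spread, and that spread may be partly technical.

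Keratins are the intermediate filament proteins of epithelial cells. A filament is built from pairs of a type I and a type II keratin, so a cell needs members of both types. Krt8 (type II) and Krt18 (type I) are the founding pair of single-layered epithelia, including alveolar epithelium, and Krt7 (type II) and Krt19 (type I) join them in many ducts and in lung. Krt20 and Krt23 are type I keratins with narrower distribution, Krt20 being best known from intestinal and urothelial surface cells. Krt5 (type II) and Krt14 (type I) form the pair of basal cells in stratified and airway epithelium, where Krt15 is also found, and Krt17 (type I) is known for its induction in injured skin. Raised Krt8 is a known feature of the transitional state that AT2 cells pass through on the way to AT1 cells after lung injury.

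The libraries held between 33634368 and 43334665 expected counts, RSEM's estimates of read number, which can be fractional. Levels are given as CPM, in which each count is set against the size of its own library after TMM scaling, so that libraries can be compared. The filter on low counts, at about 0.27 CPM in at least 2 libraries, kept 14416 genes, among them 8 of the 10 keratins. Krt5 and Krt15 stayed below it. Krt20 and Krt17 exceeded that level in only 1 of the 2 3D FNHCS libraries and Krt14 in only 1 of the 2 2D FNHCS libraries, and all 3 passed without counting a 2D FBS library. In bulk RNA, fewer cells of a type and less RNA per cell cannot be told apart. The cultures carried the markers that their titles name. The summed level of 12 AT2 markers was 54160 and 74930 CPM in 3D FNHCS, 56320 and 48330 CPM in 2D FNHCS, and 1102 and 1620 CPM in 2D FBS. Most of it was Sftpc, at 33500 and 41010 CPM in 3D FNHCS and 51430 and 40990 CPM in 2D FNHCS. The summed level of 13 AT1 markers was 3018 and 2634 CPM in 3D FNHCS, 6360 and 15180 CPM in 2D FNHCS, and 27080 and 27540 CPM in 2D FBS. Between 3D and 2D FNHCS, 6 of the 12 AT2 markers fell and none rose, with a median of -2.31 on the log2 scale (8 fell with line as a block). In the same comparison 5 of the 13 AT1 markers rose and none fell (8 rose with the block). Over all tested genes 9.77% were called lower and 8.63% higher there, and 14.8% and 14.2% with the block.

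The promoters of 4 members are shown here, Krt7 and Krt20 because they had the largest called rises of the members and Krt8 and Krt18 because they form a pair. RefSeq promoter sequences on GRCm38.p6 were matched for 7 of the 10 members, each from 250 bases before to 50 bases after the annotated start and read along the gene. The counts themselves were made on mm9, and no coordinate is carried between the builds. Krt7 lies at chr15:101412153-101412452 on the plus strand, Krt8 at chr15:102004293-102004592 on the minus strand, Krt18 at chr15:102027966-102028265 on the plus strand, and Krt20 at chr11:99438104-99438403 on the minus strand. Capitals mark a match on either strand to any of 4 motifs that were searched. The GC box was searched as GGGCGG. The TATA box was searched as TATAAA. The motif of TEAD factors was searched as GGAATG. The motif of AP-1 was searched as TGANTCA.
Krt7: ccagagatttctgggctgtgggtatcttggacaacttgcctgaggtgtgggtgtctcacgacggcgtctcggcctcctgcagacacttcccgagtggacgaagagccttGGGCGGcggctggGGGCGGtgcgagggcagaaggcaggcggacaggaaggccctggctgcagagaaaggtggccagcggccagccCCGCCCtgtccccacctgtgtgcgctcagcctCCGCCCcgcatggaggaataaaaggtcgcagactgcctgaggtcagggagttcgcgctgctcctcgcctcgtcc
Krt8: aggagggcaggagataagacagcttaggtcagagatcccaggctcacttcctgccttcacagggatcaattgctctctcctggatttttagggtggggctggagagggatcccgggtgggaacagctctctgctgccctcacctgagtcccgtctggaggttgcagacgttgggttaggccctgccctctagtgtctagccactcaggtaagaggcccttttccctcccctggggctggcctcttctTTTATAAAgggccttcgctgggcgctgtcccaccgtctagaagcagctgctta
Krt18: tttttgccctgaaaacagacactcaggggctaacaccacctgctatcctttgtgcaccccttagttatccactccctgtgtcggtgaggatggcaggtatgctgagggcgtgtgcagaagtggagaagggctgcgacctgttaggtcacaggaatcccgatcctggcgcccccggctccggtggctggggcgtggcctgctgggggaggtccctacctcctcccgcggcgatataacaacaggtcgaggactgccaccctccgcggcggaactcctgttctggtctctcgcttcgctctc
Krt20: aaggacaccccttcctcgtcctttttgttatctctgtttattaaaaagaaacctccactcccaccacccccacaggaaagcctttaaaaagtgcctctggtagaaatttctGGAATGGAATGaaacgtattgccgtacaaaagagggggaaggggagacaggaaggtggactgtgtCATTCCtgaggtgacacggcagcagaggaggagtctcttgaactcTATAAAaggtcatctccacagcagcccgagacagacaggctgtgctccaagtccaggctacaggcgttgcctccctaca

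The Krt7 window held 4 GC boxes. The Krt8 window held 2 overlapping matches to the TATA box, 1 on each strand. The Krt18 window held none of the 4 motifs. The Krt20 window held 3 matches to the TEAD motif and 1 TATA box. Among 32851 RefSeq promoters of the same length, 35.7% held a GC box, 13.6% a TATA box, 14.7% a TEAD motif and 7.81% an AP-1 motif. Of the other members with a sequence, Krt14 held 1 TEAD motif, and Krt5 and Krt23 held none of the 4 motifs. A match describes the letters of the window only.

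Flat culture in FNHCS medium was compared with 3D culture in the same medium to see which keratins differ with the culture format. Geometry and the matrigel drops both differ there and cannot be told apart. One keratin, Krt7, rose, and 7 of the 8 tested did not pass the threshold of 0.05 on the adjusted p, which is here the Benjamini-Hochberg adjusted p of edgeR's quasi-likelihood test over all tested genes. The background in that comparison was 18.4% of tested genes called, 8.63% higher and 9.77% lower. The libraries of both groups did not overlap for Krt7, Krt8 and Krt19, all higher in 2D FNHCS, against a background of 63.8% of tested genes without overlap, 30.9% higher and 32.9% lower.

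Serum medium was compared with FNHCS medium in flat culture, and 4 of the 8 tested keratins rose, namely Krt7, Krt14, Krt19 and Krt20. The background was 10.6% of tested genes called, 5.85% higher and 4.77% lower. Libraries did not overlap for 7 of the 8, all but Krt23 and all higher in 2D FBS, against 59.8% of tested genes, 28.8% higher and 31% lower. Against 3D FNHCS, 5 keratins rose in 2D FBS, namely Krt7, Krt8, Krt14, Krt19 and Krt20. Medium and culture format both differ in that comparison and cannot be told apart. There the background was 40.5% of tested genes called, 19.9% higher and 20.5% lower, and 75% without overlap, 36.3% higher and 38.7% lower. The same 7 keratins did not overlap in that comparison, all higher in 2D FBS. The comparisons share libraries, so their results are not independent of each other. No keratin among the 8 fell in this fit.

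The lines are the same cells in every condition, so a fit with line as a block was run beside each comparison. With the block, Krt7 rose and Krt23 fell in 2D FNHCS against 3D FNHCS, all 8 tested keratins rose in 2D FBS against 2D FNHCS, and 7, all but Krt23, rose in 2D FBS against 3D FNHCS. The block also called more of all tested genes. Those were 29% in the first comparison (14.2% higher, 14.8% lower), 18.7% in the next (10.3% higher, 8.41% lower) and 49.3% in the last (24.4% higher, 25% lower). The block left 2 residual degrees of freedom and the fit without it 3.

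**Figure D1:**
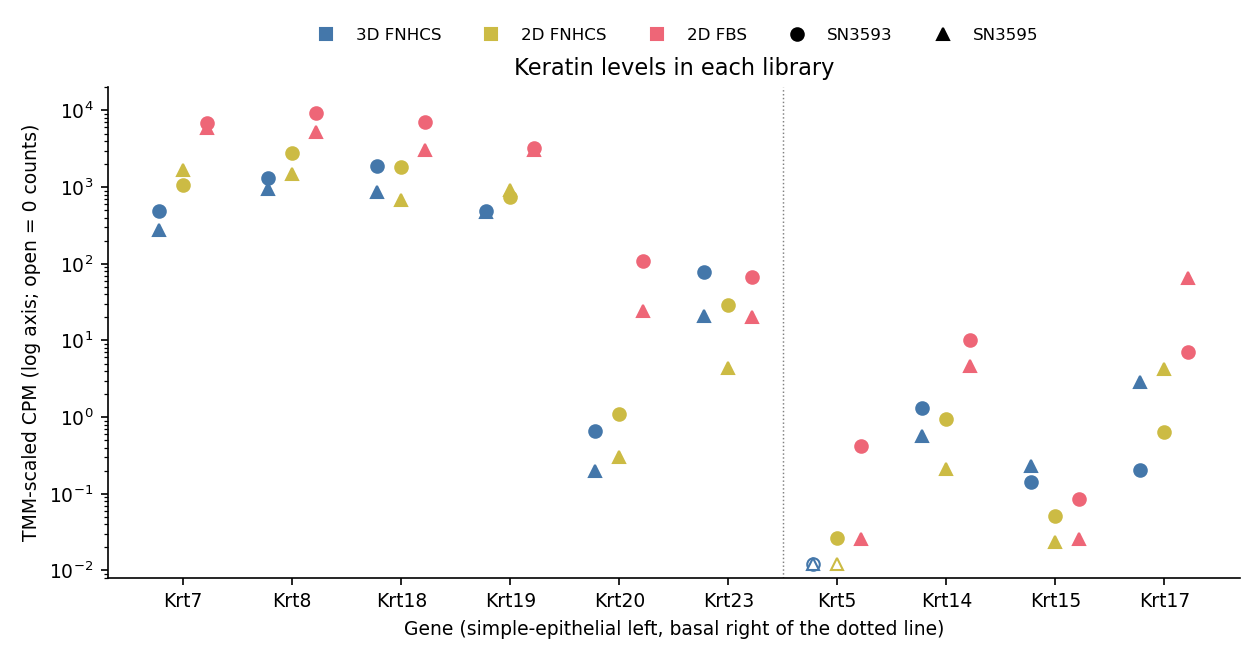
TMM-scaled CPM of the 10 keratins in each of the 6 libraries on a log axis, coloured by condition, with circles for SN3593 and triangles for SN3595; open symbols mark 0 counts and are drawn at the bottom of the axis. Krt7, Krt8, Krt18 and Krt19 lie between 275 and 9168 CPM in every library, and no basal keratin exceeds 64.6 CPM.

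Krt8, the type II keratin of the founding pair, had 1315 CPM in SN3593 and 948 CPM in SN3595 in 3D FNHCS. It had 2766 and 1465 CPM in 2D FNHCS, and 9168 and 5163 CPM in 2D FBS. Every flat library was above both 3D libraries, and both serum libraries were above every other. The change from 3D FNHCS to 2D FBS was 6.33-fold, a log2 fold change of 2.66 ± 0.473 (SE, n = 2 per group) with an edgeR adjusted p of 0.00718. From 2D FNHCS to 2D FBS the log2 fold change was 1.76 ± 0.458 with an edgeR adjusted p of 0.0622, and of 0.0211 with line as a block. From 3D FNHCS to 2D FNHCS it was 0.90 ± 0.449 with an edgeR adjusted p of 0.203. Among annotated 50-base windows of the Krt8 transcript, 26.9% also occur in the pseudogene Krt8-ps, which has no row in the table used, so reads from both would be counted together.

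Krt18, the type I partner, had 1863 and 865 CPM in 3D FNHCS, 1811 and 689 CPM in 2D FNHCS, and 7159 and 3065 CPM in 2D FBS, in the order SN3593 and SN3595 used throughout. The libraries of 3D FNHCS and 2D FNHCS overlapped, and both serum libraries were above all others. The edgeR log2 fold change was -0.13 ± 0.646 from 3D to 2D FNHCS (adjusted p = 0.906). It was 2.03 ± 0.671 from 2D FNHCS to 2D FBS (adjusted p = 0.107, and 0.0122 with line as a block). Between 3D FNHCS and 2D FBS it was 1.91 ± 0.668 (adjusted p = 0.0635, and 0.00424 with the block). Without either of the 2D FNHCS libraries the last of these passed the threshold, at 0.0409 without SN3593 and 0.0404 without SN3595.

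Per kilobase of coding sequence, the ratio of Krt8 to Krt18 was 0.609 in SN3593 and 0.946 in SN3595 under 3D FNHCS. Under 2D FNHCS the same ratio was 1.32 and 1.83, and under 2D FBS 1.11 and 1.45. Krt18 was the more abundant transcript of the pair in both 3D libraries, and Krt8 in all 4 flat libraries. Per kilobase of whole transcript, however, Krt18 (4982) was above Krt8 (4682) in 2D FBS of SN3593, so that order depends on the length used. Summed over all 10 members, the ratio of type II to type I keratins per coding kilobase was also above 1 in the flat libraries only. It was 0.645 and 0.774 under 3D FNHCS, 1.28 and 1.67 under 2D FNHCS, and 1.32 and 1.56 under 2D FBS. Per kilobase of transcript it was 0.477 and 0.601 under 3D FNHCS, 0.951 and 1.07 under 2D FNHCS, and 0.888 and 0.986 under 2D FBS, so the side of 1 depends on the length used, while both 3D libraries were the lowest on either length. These ratios are given as descriptions without a test.

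**Figure D2:**
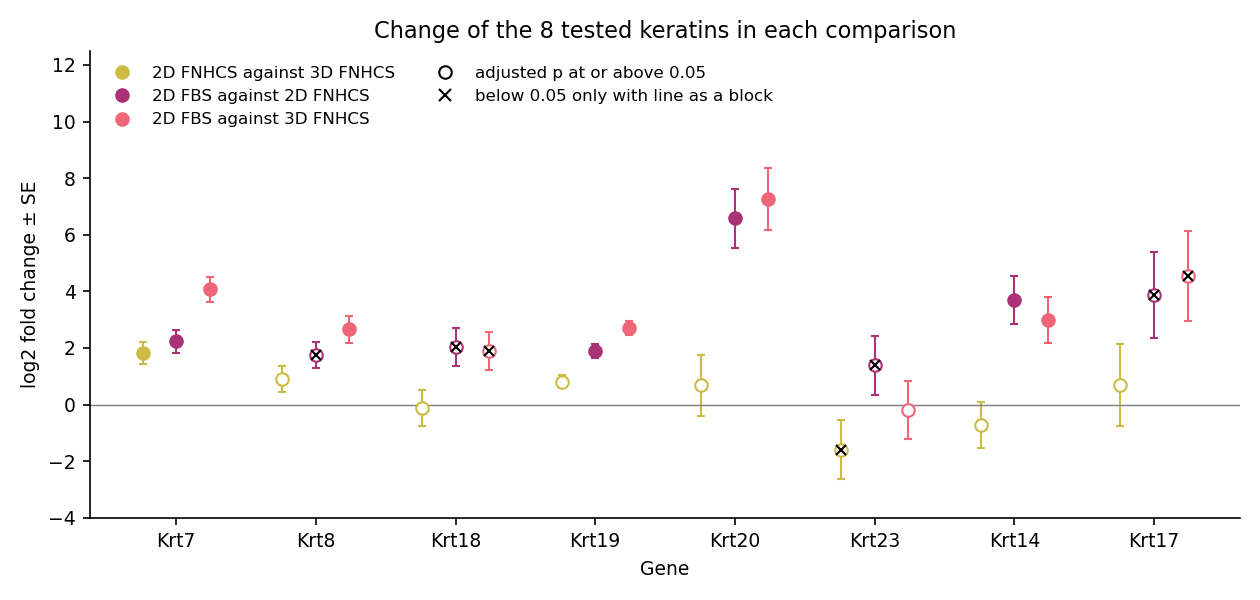
Log2 fold change with its approximate SE from edgeR for the 8 tested keratins in the 3 comparisons of conditions. Filled points have an adjusted p below 0.05, open points do not, and a cross marks those below 0.05 only with line as a block; Krt20 has the largest change of the 8, at 7.26 between 2D FBS and 3D FNHCS.

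Krt7, a type II keratin that pairs with Krt18 or Krt19, was the member that rose in every comparison of conditions. It had 483 and 275 CPM in 3D FNHCS, 1059 and 1649 CPM in 2D FNHCS, and 6797 and 5926 CPM in 2D FBS. The 3 conditions did not overlap, and the order was the same in both lines. The rise was 3.57-fold from 3D to 2D FNHCS (log2 1.84 ± 0.39, edgeR adjusted p = 0.0266) and 4.70-fold from 2D FNHCS to 2D FBS (2.23 ± 0.396, adjusted p = 0.0246). Between 3D FNHCS and 2D FBS it was 16.8-fold (4.07 ± 0.428, adjusted p = 0.00166). The call between 3D and 2D FNHCS was lost when any library but that of SN3593 in 2D FNHCS was left out, with adjusted p between 0.0527 and 0.116. The call between 2D FNHCS and 2D FBS was lost without SN3593 in 2D FNHCS (0.0886), without SN3593 in 2D FBS (0.115) and without SN3595 in 2D FBS (0.0766).

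Krt19, a small type I keratin of simple epithelia, had 485 and 473 CPM in 3D FNHCS, 754 and 930 CPM in 2D FNHCS, and 3230 and 3061 CPM in 2D FBS. The lines lay closer together than for the other abundant keratins, and the 3 conditions did not overlap. The rise from 2D FNHCS to 2D FBS was 3.74-fold (log2 1.90 ± 0.24, edgeR adjusted p = 0.0123), and from 3D FNHCS to 2D FBS it was 6.57-fold (2.72 ± 0.248, adjusted p = 0.00132). From 3D to 2D FNHCS the log2 fold change was 0.81 ± 0.234 with an edgeR adjusted p of 0.0585. The call in 2D FBS against 2D FNHCS was lost only without SN3593 in 2D FBS, at an adjusted p of 0.0703.

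The order of the 4 abundant simple keratins by CPM per coding kilobase differed between libraries. In 3D FNHCS it was Krt18, Krt8, Krt19 and Krt7 in both lines, from 1468 down to 352 in SN3593 and from 682 down to 200.4 in SN3595. In 2D FBS of SN3593 it was Krt8 at 6237, Krt18 at 5641, Krt7 at 4958 and Krt19 at 2672. In 2D FBS of SN3595 it was Krt7 at 4323, Krt8 at 3513, Krt19 at 2532 and Krt18 at 2415. Within a flat condition the order differed between the lines, and no difference between neighbours was tested. The place of Krt7 depends on the length used, since its annotated transcript has 4094 bases and its coding part 1371, and per kilobase of transcript it had 1448 in that last library, the lowest of the 4.

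Krt20 had the largest change of the 8 tested members. Its level was 0.662 and 0.199 CPM in 3D FNHCS and 1.09 and 0.305 CPM in 2D FNHCS, which are 23, 7, 42 and 13 counts, and 108 and 24.2 CPM in 2D FBS. Both serum libraries stood far above the other 4, and the flat and 3D FNHCS libraries overlapped. The log2 fold change was 6.58 ± 1.04 from 2D FNHCS to 2D FBS (edgeR adjusted p = 0.0195) and 7.26 ± 1.09 from 3D FNHCS to 2D FBS (adjusted p = 0.00424). From 3D to 2D FNHCS it was 0.68 ± 1.07 (adjusted p = 0.68). The call against 2D FNHCS was lost without SN3593 in 2D FNHCS (0.0527) or in 2D FBS (0.0694), and with limma-voom (0.0548). Even in 2D FBS its CPM per coding kilobase, 83.8 and 18.7, was far below the 5641 and 2415 of Krt18.

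Genes that mark intestinal and stomach epithelium were low in every library, also in those where Krt20 was highest. Urothelial markers were not described by a list. The summed level of 11 gastrointestinal markers was 4.98 and 4.76 CPM in 3D FNHCS, 1.11 and 0.688 CPM in 2D FNHCS, and 0.546 and 0.848 CPM in 2D FBS, with 4 to 7 of the 11 at 0 counts in each library.

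Krt23, a type I keratin described mainly in digestive tract epithelium, was, with Krt18 and Krt17, 1 of 3 members with no call in any comparison of conditions in the fit without a block. It had 79.2 and 20.7 CPM in 3D FNHCS, 28.9 and 4.32 CPM in 2D FNHCS, and 66.7 and 20.1 CPM in 2D FBS. In both lines the 2D FNHCS library was the lowest, while the libraries of the conditions overlapped because the lines differed. The edgeR log2 fold change from 3D to 2D FNHCS was -1.59 ± 1.05 (adjusted p = 0.323) and, with line as a block, -1.81 (0.0109). From 2D FNHCS to 2D FBS it was 1.39 ± 1.04 (0.411) and, with the block, 1.68 (0.0189). Between 2D FBS and 3D FNHCS it was -0.20 ± 1.02 (0.892).

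Krt14, the type I keratin of basal cells, had 1.31 and 0.563 CPM in 3D FNHCS, 0.932 and 0.211 CPM in 2D FNHCS, and 10.1 and 4.69 CPM in 2D FBS. The serum libraries were above all others and the other conditions overlapped. The edgeR log2 fold change was 3.70 ± 0.841 from 2D FNHCS to 2D FBS (adjusted p = 0.0442) and 2.99 ± 0.81 from 3D FNHCS to 2D FBS (adjusted p = 0.0289). From 3D to 2D FNHCS it was -0.71 ± 0.807 (adjusted p = 0.56). The call against 2D FNHCS was lost whichever library was left out, with adjusted p from 0.0547 to 0.179. The call against 3D FNHCS was lost without either 3D library (0.0646 and 0.124) or without SN3593 in 2D FBS (0.126). Krt14 shares 14.4% of its 50-base windows with other genes, mostly with Krt16.

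Krt5, the type II partner of Krt14, was close to absent from the reads. It had 0 counts in 3D FNHCS in both lines. SN3593 had 1.01 counts under 2D FNHCS and 14.61 under 2D FBS, and SN3595 had 0 and 1. A count of 0 allows up to 3 counts, between 0.0692 and 0.0892 CPM over the libraries. The 14.61 counts in SN3593 in 2D FBS equal 0.42 CPM, beside 10.1 CPM of Krt14 in that library. Krt5 shares 8.52% of its 50-base windows with other genes, mostly with Krt6a, which had 110 counts in that library. The part of shared reads in the Krt5 counts was not tested. Krt15, also of basal cells, had 5 and 8 counts under 3D FNHCS and between 1 and 3 in every flat library. Krt5 and Krt15 were not tested.

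Krt17, the basal keratin known from injured skin, had 0.202 and 2.84 CPM in 3D FNHCS, 0.647 and 4.20 CPM in 2D FNHCS, and 7.05 and 64.6 CPM in 2D FBS. Within each line the serum library was the highest, and both serum libraries were above all others. The edgeR log2 fold change was 4.56 ± 1.59 between 2D FBS and 3D FNHCS (adjusted p = 0.0621, and 0.00087 with line as a block). It was 3.88 ± 1.52 between 2D FBS and 2D FNHCS (adjusted p = 0.153, and 0.00498 with the block). Leaving out 1 library moved the first value between 2.19, without SN3595 in 2D FBS, and 7.46, without SN3595 in 3D FNHCS, and the other between 1.54, without SN3595 in 2D FBS, and 5.82, without SN3595 in 2D FNHCS. None of these passed the threshold. From 3D to 2D FNHCS it was 0.68 ± 1.45 (adjusted p = 0.765).

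The simple and basal classes were set side by side as sums of CPM per kilobase of transcript. The simple sum was 2445 and 1467 under 3D FNHCS, 3429 and 2224 under 2D FNHCS, and 13470 and 8185 under 2D FBS. The basal sum was 0.984 and 2.29, then 1.01 and 2.85, then 10.8 and 44.4. In each line both sums were highest in 2D FBS. The basal share of the summed level was 0.0982% ± 0.0819 (SD, n = 2) under 3D FNHCS, 0.0786% ± 0.0696 under 2D FNHCS and 0.310% ± 0.325 under 2D FBS. The difference between conditions was within the spread between the lines, since SN3593 had 0.0797% in 2D FBS and SN3595 had 0.156% in 3D FNHCS. Within each line the share was highest in 2D FBS and lowest in 2D FNHCS. In SN3595 the basal sum was mostly Krt17. In SN3593 Krt14 was above Krt17 per kilobase in every condition. They had 0.770 and 0.130 under 3D FNHCS, 0.549 and 0.417 under 2D FNHCS, and 5.96 and 4.55 under 2D FBS. Without Krt17 the share was 0.0349% and 0.0317% under 3D FNHCS, 0.0172% and 0.0062% under 2D FNHCS, and 0.0460% and 0.0341% under 2D FBS. Then the 2D FNHCS libraries did not overlap the others, while 3D FNHCS and 2D FBS did. Simple keratins took 0.425% and 0.252% of all counts under 3D FNHCS, 0.737% and 0.504% under 2D FNHCS, and 2.43% and 1.57% under 2D FBS.

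**Figure D3:**
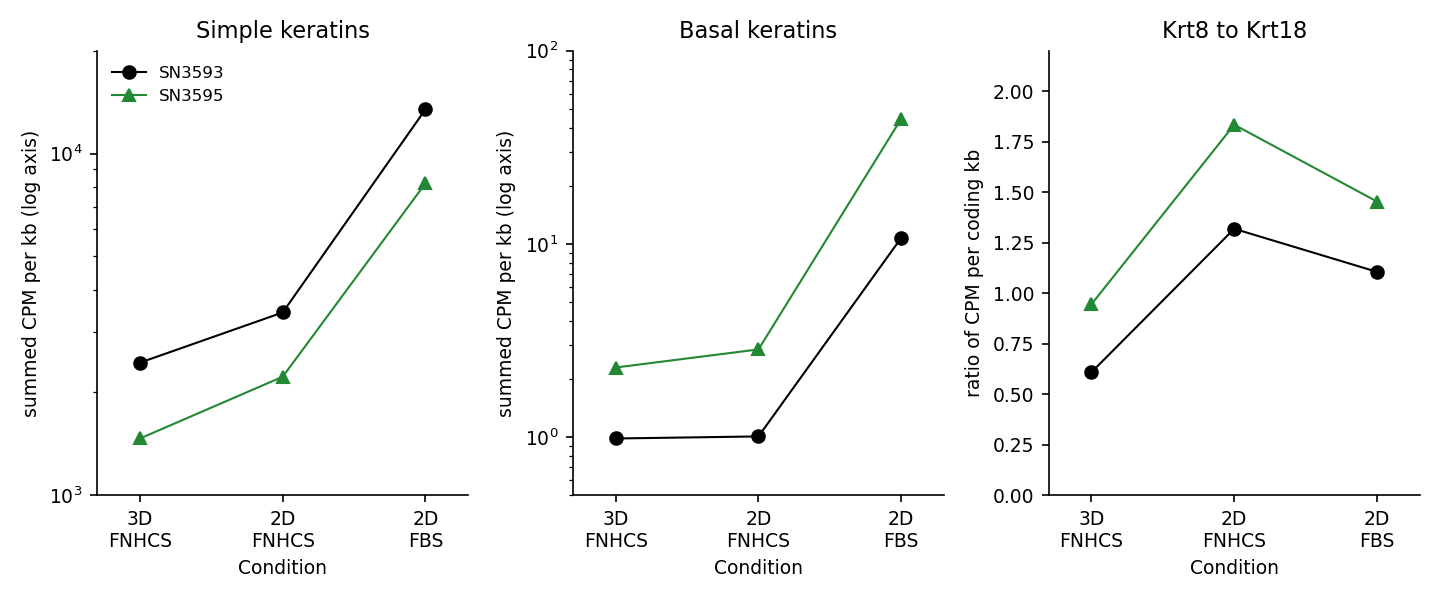
Summed CPM per kilobase of transcript of the 6 simple and of the 4 basal keratins on log axes, and the ratio of Krt8 to Krt18 per coding kilobase, in each condition for SN3593 (circles) and SN3595 (triangles). The simple sum is higher in SN3593 in each condition and the basal sum in SN3595, and the Krt8 to Krt18 ratio is above 1 in the 4 flat libraries and below 1 in both 3D libraries.

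The lines differed in keratin levels, but only for Krt23 by more than every comparison of conditions. Its edgeR log2 difference between lines was -2.12, and its largest change between conditions was -1.59 in the fit without a block. For Krt14, Krt17, Krt18 and Krt20 the line difference was larger than the change from 3D to 2D FNHCS. It was smaller than both of their changes to 2D FBS. Krt17 was higher in SN3595 by 14.1-fold in 3D FNHCS, 6.49-fold in 2D FNHCS and 9.15-fold in 2D FBS. Krt23 was higher in SN3593 by 3.83-fold, 6.69-fold and 3.32-fold in the same order, Krt20 by 3.34-fold, 3.56-fold and 4.47-fold, and Krt14 by 2.32-fold, 4.42-fold and 2.16-fold. Krt18 was higher in SN3593 by 2.15-fold, 2.63-fold and 2.34-fold, and Krt8 by 1.39-fold, 1.89-fold and 1.78-fold. Each of these fold differences within a condition compares 1 library with 1 library. Krt7 and Krt19 did not keep a direction. Thus 6 of the 8 tested keratins kept their direction in all 3 conditions, 1 higher and 5 lower in SN3595, against 44.3% of all tested genes, 23.8% higher and 20.5% lower.

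In the test of line across conditions, edgeR called no keratin. The background was 0.00694% of tested genes, which is 1 gene, higher in SN3595, and 0% lower. At an unadjusted p below 0.05, edgeR had 6 of the 8 keratins and 2678 of all tested genes. The lowest adjusted p was 0.1, shared by Krt17 (log2 3.15 ± 0.235), Krt20 (-2.01 ± 0.167) and Krt23 (-2.12 ± 0.222). DESeq2 called 6 of the 8 keratins, those that kept their direction, beside 5.51% of all genes to which it gave an adjusted p. The limma-voom test called none, beside 0.00694% of all genes. Without the filter on low counts, edgeR called Krt17, Krt20 and Krt23, beside 0.336% of all genes. With 2 residual degrees of freedom and 1 library per line and condition, the line result depends on the test used.

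**Figure D4:**
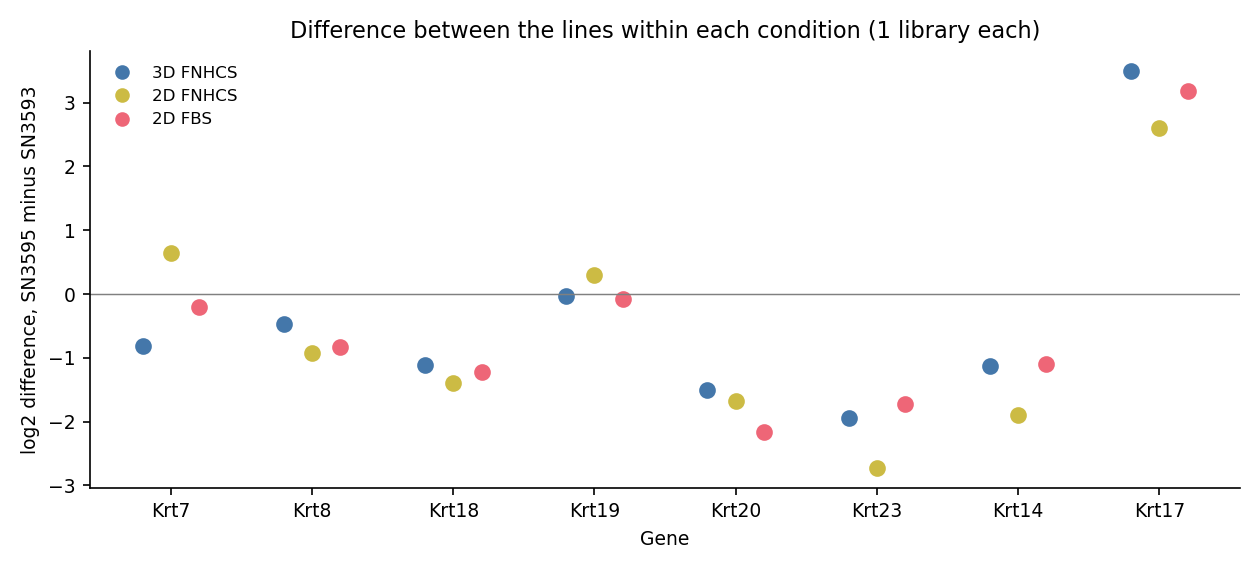
Log2 difference between the lines, SN3595 minus SN3593, in each condition for the 8 tested keratins, with 1 library per line and condition and hence no error bar. Krt17 lies above 2.6 in the 3 conditions, Krt8, Krt18, Krt20, Krt23 and Krt14 lie below 0, and Krt7 and Krt19 lie on both sides of 0.

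Beyond the members, the table held 41 other keratin genes, of which 10 were tested, 29 had at most 10 counts in every library, and 1 reached 10 CPM. That gene was Krt80, a type II keratin found at cell junctions of many epithelia. Krt80 had 4.26 and 3.52 CPM in 3D FNHCS, 33.6 and 45.1 CPM in 2D FNHCS, and 281 and 156 CPM in 2D FBS. The conditions did not overlap. Krt80 rose in each comparison in edgeR, with log2 fold changes of 3.34 ± 0.35 from 3D to 2D FNHCS (adjusted p = 0.00553), 2.47 ± 0.331 from 2D FNHCS to 2D FBS (0.014) and 5.81 ± 0.39 from 3D FNHCS to 2D FBS (0.00075).

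Other called keratins were low. Krt84, a hair keratin, rose from at most 10 counts per library in 3D FNHCS and in 2D FNHCS to 118 and 47 counts in 2D FBS (edgeR adjusted p = 0.0151 and 0.0342). Krt16, a type I keratin of activated skin, was called between 2D FNHCS, at 0 counts in both libraries, and 2D FBS, at 47.9 and 19.6 counts (adjusted p = 0.0324). It had 7.6 and 3.14 counts in 3D FNHCS and shares sequence with Krt14. Krt42 was higher in 2D FBS, at 30 and 34 counts, than in 3D FNHCS, at 2 and 1 (adjusted p = 0.0356). Krt24 had 21 and 26 counts in 3D FNHCS and 2 in each 2D FBS library (adjusted p = 0.0355). Krt10, the type I keratin of differentiated skin layers, fell from 7.31 and 5.45 CPM in 3D FNHCS to 2.99 and 2.91 CPM in 2D FBS (adjusted p = 0.0276).

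Keratin filaments attach to desmosomes between cells and to hemidesmosomes at the basement membrane, and the genes of both anchors were described by lists. Of 8 hemidesmosome genes described here 7 were tested, and all 7 rose in 2D FBS against 3D FNHCS. They had a median log2 fold change of 2.43, beside -0.03 over all genes. In 2D FBS against 2D FNHCS 5 rose, and in 2D FNHCS against 3D FNHCS 2 rose, and none fell in any comparison. The share of all tested genes called was 40.5% in 2D FBS against 3D FNHCS (19.9% higher). It was 10.6% in 2D FBS against 2D FNHCS (5.85% higher) and 18.4% in 2D FNHCS against 3D FNHCS (8.63% higher). When a library was left out, 6 or 7 rose in the first of these comparisons, 0 to 4 in the next, with 0 without SN3593 in 2D FBS, and 0 or 1 in the last, with 0 without SN3593 in 3D FNHCS or either 2D FNHCS library. Itgb4, the integrin subunit that binds the keratin linker plectin, had 3.51 and 1.93 CPM in 3D FNHCS, 5.10 and 5.65 CPM in 2D FNHCS, and 27.9 and 14.5 CPM in 2D FBS. Its log2 fold change between 2D FBS and 3D FNHCS was 2.96 ± 0.446 (edgeR adjusted p = 0.00426). Plec, which encodes plectin, had 40.3 and 32.0 CPM in 3D FNHCS, 68.2 and 85.1 CPM in 2D FNHCS, and 238 and 152 CPM in 2D FBS, with a log2 fold change of 2.43 ± 0.283 (adjusted p = 0.00215). Dst, which encodes the linker dystonin, rose by 3.68 ± 0.469 on the log2 scale (adjusted p = 0.00267). Col17a1, the transmembrane collagen of hemidesmosomes, was not tested and had at most 2.33 counts in any library.

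Of 13 desmosome genes 9 were tested, and 4 rose in 2D FBS against 3D FNHCS while none fell, where 40.5% of all tested genes were called and 19.9% were higher. Their median log2 fold change was 1.05. They were Pkp2 (2.19 ± 0.301, edgeR adjusted p = 0.00325), Pkp3 (1.66 ± 0.243, 0.00393), Dsp (1.16 ± 0.185, 0.0051) and Jup (1.05 ± 0.225, 0.0131), which encode plaques that tie keratin to the cadherins. Dsp, the desmoplakin gene that binds keratin itself, had 19.8 and 18.9 CPM in 3D FNHCS. It had 24.1 and 26.1 CPM in 2D FNHCS, and 48.4 and 37.8 CPM in 2D FBS. In 2D FNHCS against 3D FNHCS, 1 desmosome gene rose, Pkp3, beside 8.63% of all tested genes called higher. In 2D FBS against 2D FNHCS 2 rose, Dsg2 and Dsp, beside 5.85% called higher, and 4 with line as a block, beside 10.3%. Leaving out 1 library at a time left 3 or 4, 0 or 1 and 0 or 1 of the desmosome genes called in the comparisons as ordered here, starting from 2D FBS against 3D FNHCS. Among 10 plakins and keratin linkers, 3 of which stand in the other lists, 6 rose and 1 fell in 2D FBS against 3D FNHCS. Eppk1 rose by 3.38 ± 0.297 (0.00122), Evpl by 2.72 ± 0.284 (0.00165) and Macf1 by 2.57 ± 0.289 (0.00195) on the log2 scale, and Krtcap2, a gene named for a link to keratin whose product works in protein glycosylation, fell by 0.64 (0.0352).

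**Figure D5:**
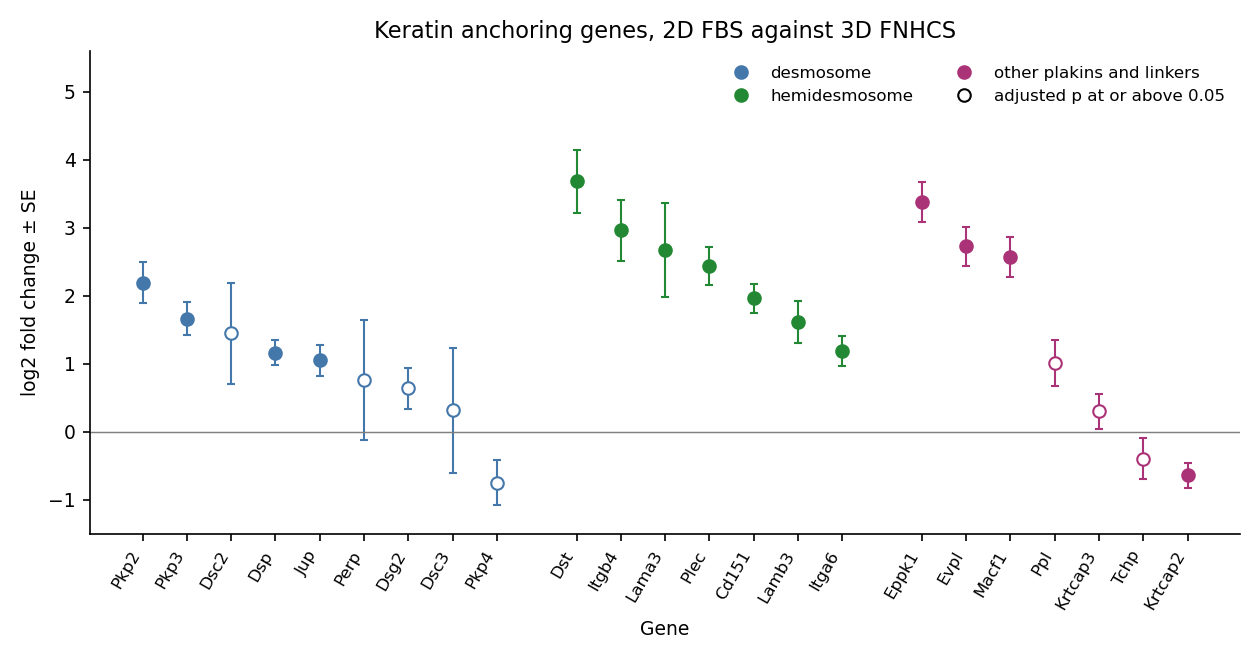
Log2 fold change with approximate SE from edgeR between 2D FBS and 3D FNHCS for the tested genes of the desmosome, hemidesmosome and other plakin and linker lists. Filled points have an adjusted p below 0.05; all 7 hemidesmosome genes lie above 1 and are filled, and 4 of the 9 desmosome genes are filled.

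Of the other intermediate filament genes 6 of 13 were tested, and 3 rose and 1 fell in 2D FBS against 3D FNHCS. In that comparison 40.5% of all tested genes were called, 19.9% higher and 20.5% lower. Vim, the vimentin gene of mesenchymal and migrating cells, had 14.4 and 2.64 CPM in 3D FNHCS, 15.0 and 18.7 CPM in 2D FNHCS, and 108 and 54.0 CPM in 2D FBS. Its log2 fold change was 3.25 ± 0.781 (edgeR adjusted p = 0.0193). Lmna, which encodes the nuclear lamins A and C, rose by 2.97 ± 0.206 (0.000766) and Synm, the synemin gene, by 3.12 ± 0.602 (0.00938), while Lmnb1, of lamin B1, fell by 0.68 on the log2 scale (0.0244).

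The basal keratins were read beside the genes of basal and squamous cells. Trp63, the master regulator of basal cells, had 32.0 and 5 counts under 3D FNHCS, 12 and 4 under 2D FNHCS, and 2 in each 2D FBS library. Its level thus lay lowest where Krt14 was highest, with a log2 fold change of -3.22 ± 1.19 between 2D FBS and 3D FNHCS (edgeR adjusted p = 0.0732, and 0.03 with line as a block). Of the 18 basal and squamous genes 12 were tested, and 2 rose and 5 fell in 2D FBS against 3D FNHCS. Beside them, 19.9% of all tested genes were called higher and 20.5% lower, and 24.4% and 25% with line as a block. Over these 12 genes the median was -2.53 on the log2 scale. From 3D to 2D FNHCS none of the 12 rose and 2 fell (median -1.08), beside 8.63% of all tested genes called higher and 9.77% lower. From 2D FNHCS to 2D FBS 2 rose and none fell (median -1), beside 5.85% called higher and 4.77% lower. In 2D FBS against 3D FNHCS the risers were Sfn, which encodes stratifin (3.46 ± 0.488, adjusted p = 0.00351), and Tgm1, a cross-linking transglutaminase (1.70 ± 0.454, 0.0274). The genes that fell included Sprr1a and Ivl, both of the cornified envelope. They fell by 2.94 (0.00292) and 3.46 (0.0128) on the log2 scale. Ly6d, a surface protein gene of stratified epithelium, had 126 and 3446 counts in 3D FNHCS but 2 and 8 in 2D FBS (0.0135). With line as a block, 3 of the list rose and 6 fell, and without either 2D FBS library 1 rose and 1 fell.

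Among 16 transcription and splicing factors known to act on epithelial genes, including keratins, 14 were tested, and 2 rose and 4 fell in 2D FBS against 3D FNHCS, or 2 and 8 with line as a block. The background there was 40.5% of tested genes called, 19.9% higher and 20.5% lower, and 49.3% with the block (24.4% higher, 25% lower). The list median was -0.60. Grhl3 (2.84 ± 0.631, edgeR adjusted p = 0.0149) and Grhl1 (1.47 ± 0.193, 0.00285), grainyhead factors of epithelial junctions, were the risers. Elf3, an epithelial ETS factor, fell by 2.58 (0.000766) and Ovol1 by 2.95 (0.00707) on the log2 scale. None of the 14 was called in 2D FBS against 2D FNHCS, where 10.6% of all tested genes were called. There edgeR with the block called 1, which fell, beside 18.7% of all tested genes. With 14 genes, counts this low say little.

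Of 18 genes of the transitional alveolar state 17 were tested, and 8 rose and none fell in 2D FBS against 3D FNHCS, with a median log2 fold change of 1.21. With line as a block 9 rose and 1 fell, and leaving out 1 library left 5 to 11 that rose, with 5 without either 2D FBS library. Sfn also stands in this list. In 2D FNHCS against 3D FNHCS 4 rose and 2 fell, beside 8.63% of all tested genes called higher and 9.77% lower. In 2D FBS against 2D FNHCS 4 rose, beside 5.85% called higher and 4.77% lower. Plaur, the urokinase receptor gene, rose by 4.45 ± 0.213 (edgeR adjusted p = 0.000695) and Anxa1, the annexin A1 gene, by 3.94 ± 0.294 (0.000872) between 3D FNHCS and 2D FBS. Cldn4, a tight junction gene of the transitional state, had 120 and 73.5 CPM in 3D FNHCS, 412 and 156 CPM in 2D FNHCS, and 389 and 198 CPM in 2D FBS. It had a log2 fold change of 1.60 ± 0.555 between 2D FBS and 3D FNHCS (adjusted p = 0.0611, and 0.00385 with the block). All 12 AT2 markers fell and 10 of the 13 AT1 markers rose in that comparison, beside 20.5% of all tested genes called lower and 19.9% higher. Since AT2 and AT1 markers moved with the keratins, the part of the cell makeup in the keratin values was not tested.

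Markers of other cells that could carry keratins were also summed. Krt8, Krt18 and Krt19 are keratins of mesothelium, and the summed level of 7 mesothelial markers was 4.92 and 12.3 CPM in 3D FNHCS, 7.07 and 307 CPM in 2D FNHCS, and 553 and 2143 CPM in 2D FBS. Almost all of it was Msln, with 551 and 2142 CPM in 2D FBS, and 2 to 4 of the 7 markers were at 0 counts in each library. The summed level of airway secretory markers was 3.65 to 54.0 CPM and was not above 10.5 CPM in 2D FBS, that of airway ciliated markers was 2.23 to 9.25 CPM, that of fibroblast markers at most 1.52 CPM and that of endothelial markers at most 1.84 CPM. The part of other cells in the keratin values was not tested.

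The genes most like a member over the 6 libraries were found by the root mean square difference of log2 CPM, each gene centred on its own mean, for the 4 called members that averaged 10 CPM or more. Nearest to Krt7 were Mfsd2b (0.167), 2810433D01Rik (0.198) and Serpinh1 (0.228). Nearest to Krt8 were Abra (0.142), Bmp8b (0.164) and Gm19689 (0.207). The 3 nearest to Krt19 included Ctnnd1 (0.1) and Pkd1 (0.149). Nearest to Krt20 were Efhd1 (0.447), Wisp1 (0.47) and Lmod1 (0.574). The nearest other member was Krt19 for Krt7 (0.646, rank 182) and for Krt8 (0.436, rank 93). It was Krt8 for Krt19 (0.436, rank 229) and Krt14 for Krt20 (1.68, rank 143). The rank is the place of that member among the genes compared, counted from the nearest. Members are few beside all genes, so nearest genes from outside the members do not show whether keratins moved together. These distances and ranks are descriptions over libraries that share their lines and conditions.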

How the data were processed

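Gene expression was measured by polyA RNA-seq in 6 libraries, grouped by the treatment labels, 2 per condition and 3 per line. The authors deposited expected counts per gene. Per the submitters' processing notes, the build was mm9 and the tools were Bowtie 1.2.3 with RSEM 1.3.1. Not given in the sources used here were the annotation, options and strand setting. Without the strand setting, genes that overlap or run antisense are uncertain, and RSEM divides reads shared by close relatives by a model. Every value column was matched to a sample. The table had 23224 genes, and 25 symbols that had been turned into dates stayed in the tests unnamed.

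Expected counts were rounded to whole numbers for edgeR 4.0.16 (R 4.3.3). Its default filter, TMM factors and quasi-likelihood test were used, p-values were adjusted by Benjamini-Hochberg over all 14416 tested genes, and calls were made below 0.05. All 6 libraries entered 1 fit with a term per condition, to share 1 estimate of the spread. Line was tested in a fit with condition as a further term. The SE was approximated from the log2 fold change and its F statistic, as size over root F. Symbols were used as in the table. Lengths and shared 50-base windows came from GENCODE transcripts on GRCm38, another build than mm9, as lengths and names only. Promoters came from the RefSeq table on GRCm38.p6. The scripts were tested on simulated data.

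The members and the 16 gene lists were chosen with earlier results of these data known. Some genes are not reported here, and 1 was taken out of the hemidesmosome list with its counts. Of 178 list entries, 1 (Muc2) had no row in the table used. Named genes are the 10 members, other keratins with at least 10 CPM in a library, up to 4 called per comparison, up to 4 called genes per list with the lowest adjusted p, and Trp63, Vim, Dsp, Jup, Plec, Itgb4, Col17a1, Sfn and Cldn4. Msln and Sftpc were named after their values were seen, and Krt6a for the sequence it shares with Krt5. Libraries of the same line deviated together, with correlations of 0.422, 0.245 and 0.379 between conditions. Libraries of one condition differed by far more than sampling noise, with a chi-square per degree of freedom of 162, 172 and 142, so none was merged. For counts of 0 the upper limit was set at 3 counts in a library, for counting error only. Alternatives were other scalings, no filter, DESeq2 1.42.0, limma-voom with limma 3.58.1, only the groups compared, line as a block, and each library left out.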

Additional observations from a re-analysis of the deposited data

Results flagged for a closer look

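Krt42 and Krt84, keratins outside the members, moved in opposite directions in the lines under 1 contrast. From 2D FNHCS to 2D FBS, Krt42 had a log2 change of -0.99 in SN3593 and 1.79 in SN3595. From 3D to 2D FNHCS, Krt84 had a log2 change of 0.48 in SN3593 and -0.98 in SN3595. Each rests on few counts, at most 68 per library for Krt42 and 118 for Krt84.

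Krt7 and Krt19 did not keep the direction of their difference between the lines. SN3595 minus SN3593 was -0.81 under 3D FNHCS, 0.64 under 2D FNHCS and -0.20 under 2D FBS for Krt7 on the log2 scale. It was -0.036, 0.30 and -0.078 for Krt19. In each case 1 library was compared with 1 library, and the difference between lines or conditions was not tested, since a term for it leaves no residual degrees of freedom.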

How the results depend on the processing

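With line as a replicate block, genes called numbered 4181 in 2D FNHCS against 3D FNHCS and 2700 in 2D FBS against 2D FNHCS, beside 2652 and 1531 without it, and keratins called numbered 2 and 8 beside 1 and 4. DESeq2 called 4210, 3147 and, for the lines, 748 genes, with 2 keratins in the first comparison and 6 for the lines. With only the compared groups in the fit, 821 genes were called in 2D FBS against 2D FNHCS. Library-size scaling and limma-voom each called 2 keratins in 2D FNHCS against 3D FNHCS, beside 3022 and 2643 of the 14416 tested genes. Between lines, 0 genes were called with upper-quartile or library-size scaling (2610 and 2553 at an unadjusted p below 0.05), and 73 genes and 3 keratins without the filter. Leaving out each library gave 628 to 1805, 91 to 1234 and 3187 to 5976 genes called in the 3 comparisons in the order of the text and 0 for the lines, with 0 to 1, 0 to 3, 4 to 6 and 0 keratins. The fewest genes were called without SN3593 in 3D FNHCS (628 and 3187) and without SN3593 in 2D FBS (91, with no keratin). Where an arm kept 1 library, it was assumed to vary like the others.

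Of 432 values of single keratins under alternatives, 367 kept direction and side of the threshold, 29 gained a call, 23 lost one and 13 changed sign, none of them called. Those were, for 2D FNHCS against 3D FNHCS, Krt18 at 0.050 with library-size scaling and at 0.49 and 0.38 without SN3593 in 3D FNHCS and SN3595 in 2D FNHCS (range with 1 library left out -0.98 to 0.49), Krt17 at -0.24 and -1.27 without the same libraries (-1.27 to 3.58), and Krt20 at -0.48 without SN3593 in 2D FNHCS (-0.48 to 1.74). For 2D FBS against 3D FNHCS, Krt23 was at 1.05 without SN3593 in 3D FNHCS and 0.41 without SN3595 in 2D FBS (-1.30 to 1.05). For the lines, Krt19 was at -0.011 with upper-quartile scaling and -0.057 and -0.044 without SN3593 or SN3595 in 2D FNHCS (-0.057 to 0.17), and Krt7 was at 0.24 and 0.25 without SN3593 or SN3595 in 3D FNHCS (-0.51 to 0.25). The cause was not tested. Under library-size scaling the median gene stood at 0.19, -0.33 and -0.15 on the log2 scale in the 3 comparisons, with 62.4%, 29.8% and 43.3% of calls higher beside 46.9%, 55.1% and 49.2%. Under upper-quartile scaling it stood at -0.19 in both comparisons of 2D FBS, with 43.4% and 40.8% of calls higher. The mean basal share of each condition moved by less than the SD between the lines when counts were not divided by length, with coding length and without Krt17. That SD comes from 2 libraries and is about as large as the mean, so it cannot show that the share is stable. Leaving out Krt17 took the share under 2D FBS from 0.0797% to 0.0460% in SN3593 and from 0.540% to 0.0341% in SN3595. Without Krt17, however, both 2D FNHCS libraries lay below the other 4. The few counts of Krt5, Krt15, Krt20 in FNHCS and Krt14 in FNHCS limit what can be said of them.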
